A study of Mus musculus with 4 samples.

Results

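Counts at the Gnas imprinted locus of mouse chromosome 2 are described here for 3 annotated genes: Gm20721, Gnas and Nespas. They were 3 of the 50600 genes counted, and all 3 were found in the tables. They were chosen by their counts, exon overlaps and strands in these tables, so their levels and ratios are a description without a test. The cells were primary cells of strain C57BL/6NJ mice, labelled as T-helper 2 cells, a class of CD4 T cell known for interleukins 4, 5 and 13. There was 1 group of 4 libraries, biological replicates 1 to 4, which carry 1 donor identifier, with age unknown and sex not collected. The labels name no treatment, and the file headers name a time course of Th1 and Th2 cells, sampled here at 0 hours. Separate mice are not stated, so the p-values below measure only the spread between these 4 samples, which may be technical. The assay label reads total RNA-seq, but the linked library protocol carries poly(A) selection in its name.

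Gnas encodes the stimulatory G protein alpha subunit, which couples hormone and prostaglandin receptors to adenylyl cyclase and so to the second messenger cyclic AMP. In T cells cyclic AMP acts through protein kinase A and restrains signalling from the antigen receptor. Gnas is a complex imprinted gene with several promoters, which start the neuroendocrine protein Nesp55, the long form XL alpha s, the untranslated exon 1A transcript and the ubiquitous alpha subunit itself. Nespas is the imprinted noncoding RNA transcribed from the other strand across the Nesp promoter. Gm20721 is a gene model predicted automatically on the strand opposite to Gnas, and no function is given for it here.

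The libraries held 1452053 to 2351916 counts, with at least 1 count at 12270 to 14884 genes. All 7 T cell markers (Cd3d, Cd3e, Cd3g, Cd4, Trac, Trbc1 and Trbc2) were detected, with a summed level of 215 to 345 TPM. TPM values are counts per exon length, scaled to the same total in each library, and a gene is called detected here from a mean of 1 TPM. Of the 4 Th2 markers, Gata3 and Il4 had counts and Il5 and Il13 had none, with a summed level of 9.83 to 19.5 TPM. Among markers of other cells, Csf1r (myeloid) made up nearly all of the 93.3 to 119 TPM of its list, with Lyz2 and Cd14 at 0. Cpa3 (mast cell or basophil) gave 33.7 to 59.6 TPM with Mcpt8 and Fcer1a at 0. Cd79a (B cell) gave 33.3 to 41.6 TPM with Cd79b and Ms4a1 at 0. Alas2 (erythroid) gave 7.01 to 19.1 TPM with Hba-a1 and Hbb-bs at 0. The CD8 T or NK cell list held 0 to 3.80 TPM, and all 4 platelet markers were at 0. In such bulk samples, fewer cells of a type and less RNA per cell cannot be told apart. Some markers also share exon bases with a gene on the other strand. Over all libraries, Csf1r had 2680 counts against 29 for Hmgxb3, and Alas2 had 150 against 26 for Apex2. The reverse held for Cd3e, with 225 against 21840 for Gm48719, and for Gata3, with 118 against 1256 for Gm13256. Il5 had 0 counts against 1 for Gm12214. Which strand was transcribed at these markers was not tested.

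Each count is a fragment whose first read matched the annotated strand of the gene. Whether that read lies on the strand of the RNA or on the opposite strand depends on the library kit, which is not given in the sources used here. The counts of Gm20721 and Gnas therefore tell the strands apart, but which of the strands was transcribed was not tested.

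Gnas (ENSMUSG00000027523.19) spans chr2:174284320-174346744 of mm10 on the plus strand, with 19 exon blocks and 11186 exon bases. Gm20721 (ENSMUSG00000090625.1) spans chr2:174330319-174346712 on the minus strand, with 13 exons and 1484 exon bases. Nespas (ENSMUSG00000086537.7) spans chr2:174281237-174295436 on the minus strand, with 5 exons and 3143 exon bases. Gm20721 and Gnas are annotated as protein-coding and Nespas as antisense. Gm20721 lies over the 3' part of Gnas and ends 32 bases short of the last Gnas base. Nespas lies over the 5' part of Gnas, and 34882 bases separate it from Gm20721. The antisense genes overlap Gnas but not each other.

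Nearly all exon bases of Gm20721 lie within exons of Gnas, though most exon edges differ. Of its 1484 exon bases, 1469 (99.0%) lie within Gnas exons and 15 lie outside. Of its 13 exons, 12 overlap a Gnas exon, 8 lie wholly inside one, 3 have the same edges on both sides and a further 5 share an edge. The exon that overlaps none is 7 bases long and the smallest intron is 4 bases long. Seen from Gnas, 13.1% of its exon bases lie opposite Gm20721, 8.83% lie opposite Nespas, and 8729 bases lie opposite neither. Nespas shares 31.4% of its exon bases (988) with Gnas.

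The exons with the same edges are shown because a fragment within one of them differs between the genes in its strand alone. Below are the exon at chr2:174345990-174346057 (68 bases) and the exon at chr2:174345649-174345779 (131 bases), from GENCODE transcripts on mm10. Each is written 5' to 3' as its gene reads it. Capitals mark the first 10 bases of the Gnas exon and, at the end of the Gm20721 exon, their reverse complement.
Gnas, 68 bases, plus strand: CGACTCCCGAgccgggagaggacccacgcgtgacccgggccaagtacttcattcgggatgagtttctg
Gm20721, 68 bases, minus strand: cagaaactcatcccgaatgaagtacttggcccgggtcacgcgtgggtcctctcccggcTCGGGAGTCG
Gnas, 131 bases, plus strand: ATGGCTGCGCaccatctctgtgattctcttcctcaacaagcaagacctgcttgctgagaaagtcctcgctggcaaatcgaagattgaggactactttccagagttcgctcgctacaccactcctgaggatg
Gm20721, 131 bases, minus strand: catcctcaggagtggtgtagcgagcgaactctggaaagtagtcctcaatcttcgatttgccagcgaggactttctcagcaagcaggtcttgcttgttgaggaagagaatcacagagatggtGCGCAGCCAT
Within each pair the sequences are exact reverse complements over their whole length. The same holds for the third such exon, which is 180 bases long. All 3 exons are coding in 7 Gnas transcripts, and all 3 are coding in the annotated Gm20721 transcript.

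The overlap with Gm20721 is found in Gnas transcripts of every start. GENCODE release 21 lists 24 Gnas transcripts, 16 of them coding, of which 21 have bases opposite Gm20721 and 5 have bases opposite Nespas. All 4 transcripts that begin at the alpha subunit start lie in part opposite Gm20721 and none opposite Nespas. The share of their exon bases opposite Gm20721 is 30.0% in Gnas-205 and 80.4% to 85.4% in Gnas-206, Gnas-207 and Gnas-208. Transcripts with other starts reach similar shares, such as Gnas-221 of exon 1A with 79.9% and Gnas-218 with 78.7%. In bases, Gnas-202 of exon 1A has 1466 opposite Gm20721, as many as Gnas-208. Of the 7 transcripts with the XL start, 6 overlap Gm20721 and none overlaps Nespas. The exon 1A start has 5 transcripts, of which 4 overlap Gm20721 and none overlaps Nespas. The Nesp start has 3 transcripts, of which 2 overlap Gm20721 and all 3 overlap Nespas. The counts are per gene, so they cannot be divided among these starts.

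Gm20721 had 16754, 16281, 15555 and 11390 counts in replicates 1 to 4. As CPM, which is the count scaled to the same library total, that was 7861, 6922, 8088 and 7844, or 7679 ± 516 (SD, n = 4). Replicate 2 was the lowest and the other libraries lay close together. Per exon length the level was 7821 ± 299 TPM. Gm20721 held 0.763% of all counts, and it ranked 7 of all genes by CPM and 11 by TPM.

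Gnas had 45, 124, 53 and 51 counts, which were 21.1, 52.7, 27.6 and 35.1 CPM in replicates 1 to 4, or 34.1 ± 13.7 CPM (SD, n = 4). Replicate 2 was the highest, opposite to its place for Gm20721. Per exon length the level was 4.66 ± 2.03 TPM, and the gene ranked 2831 by CPM. The summed T cell markers followed the same order of libraries as the CPM of Gnas, at 215, 345, 274 and 283 TPM in replicates 1 to 4. Their part in the spread of Gnas was not tested.

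Nespas had 0 counts in every library, as had 33594 of the 50600 genes. A count of 0 allows up to 3 counts over the group, which is 0.382 CPM. Against that limit, counts per exon length were at least 42344-fold higher at Gm20721 and at least 25.6-fold higher at Gnas. The order of the levels per exon length was Gm20721, Gnas, Nespas in each library, with no overlap between genes.

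**Figure D1:**
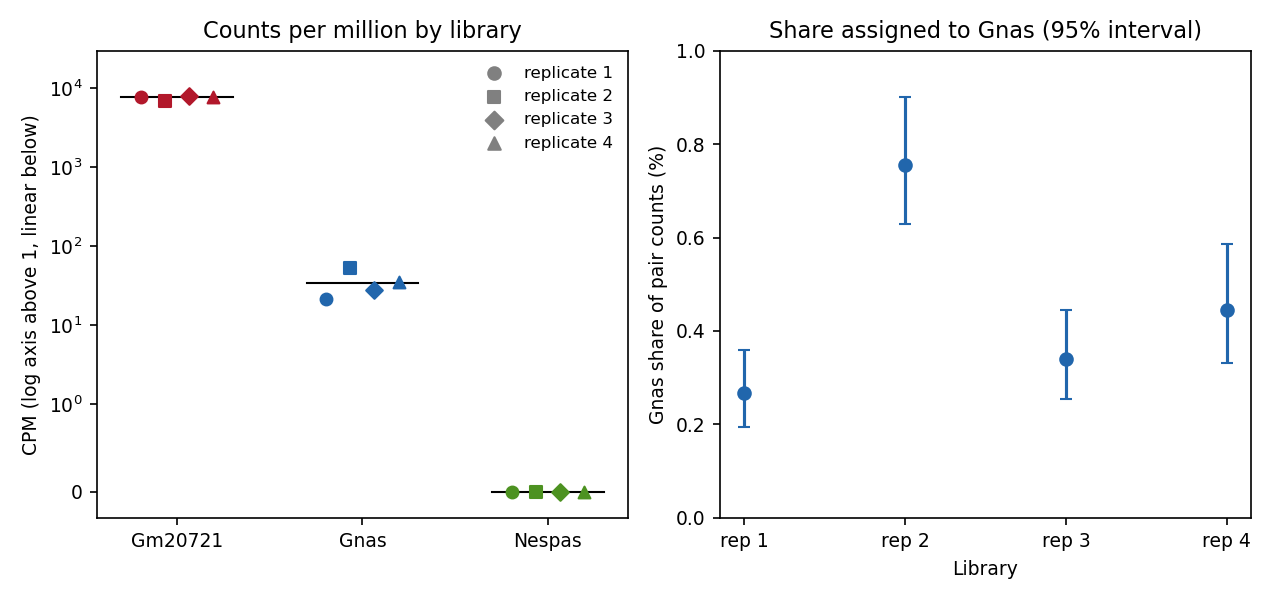
Left: CPM of each gene by library on an axis that is logarithmic above 1 and linear below, with a bar at the mean and a marker shape per replicate. Right: the Gnas share of the summed Gnas and Gm20721 counts in percent, with exact 95% intervals, where replicate 2 at 0.756% lies above the other intervals.

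Gm20721 exceeded Gnas in every library by more than the spread between libraries. The ratio of Gm20721 to Gnas counts was 372, 131, 293 and 223 in replicates 1 to 4, or 255 ± 103 (SD, n = 4). Per exon length it was 2806, 990, 2212 and 1683, or 1923 ± 773 (SD, n = 4). On the log2 scale the ratio per exon length was 10.81 ± 0.65 (SD, n = 4). The share of the pair's counts that fell to Gnas was 0.268% in replicate 1, with an exact (Clopper-Pearson) 95% interval of 0.195% to 0.358%. It was 0.756% (0.629% to 0.901%) in replicate 2, 0.340% (0.254% to 0.444%) in replicate 3 and 0.446% (0.332% to 0.586%) in replicate 4. Over all libraries it was 0.453%. The interval of replicate 2 overlapped none of the others, and these intervals cover counting error only.

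The spread between libraries was the measure on which the choice of genes did not rest. Gm20721 had a coefficient of variation of 6.73% in CPM, against 0.817% from counting error alone. Gnas had 40.0%, against 12.1% from counting error alone. In edgeR's quasi-likelihood fit, 16 of 5755 genes (0.278%) were more variable than the trend at an adjusted p of 0.05. An unadjusted edgeR p of 0.05 was passed by 285 of the 5755, about the 1 in 20 that chance alone gives. Neither of the fitted genes of the locus was among the 16. The quasi-dispersion of Gm20721 was 0.237 against a prior of 1.07 (adjusted p of 0.995 in edgeR). That of Gnas was 2.71 against a prior of 1.08 (adjusted p of 0.995 in edgeR). The unadjusted edgeR p of Gnas was 0.0568. It was 0.136, 0.388, 0.0412 and 0.0251 without replicates 1, 2, 3 and 4 in turn, and the adjusted edgeR p was 0.987 or more in each of these fits. Nespas could not be fitted.

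Genes whose pattern over the libraries was most like that of Gm20721 were looked for among 725 genes with a mean count of at least 500. Likeness was the root mean square difference of log2 CPM, centred on each gene's mean, over the 4 libraries. Gm20721 itself lay at 0.04, -0.15, 0.08 and 0.03 from its mean. The nearest was Gm43579 (opposite Ddx54) at 0.00445, followed by Pi4kb (opposite Gm15265), a phosphatidylinositol kinase, at 0.00599 and E130208F15Rik (opposite Sdhaf1) at 0.00981. The median gene differed by 0.110. With 4 libraries this is a description. Each of the 3 shares 100 or more exon bases with a gene on the other strand, as 655 of the 725 genes compared do (90.3%).

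Gnas and Gm20721 were next set beside other genes covered from the opposite strand. Pairs were taken in which at least 80% of the exon bases of the shorter gene lay in exons of a longer gene on the other strand, with a summed mean count of at least 20. The longer, covering gene had fewer counts than the gene it covered in 214 of 313 pairs (68.4%), Gnas among them. The covering gene held a median of 8.98% of a pair's counts. Gnas held 0.453%, and 18 pairs had a lower share. Per exon length, Gnas had 0.0604% of the density of Gm20721, against a median of 0.705% over the pairs, and 26 pairs were at or below Gnas. Gm20721 had more counts than any other covered gene of the 313 pairs.

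**Figure D2:**
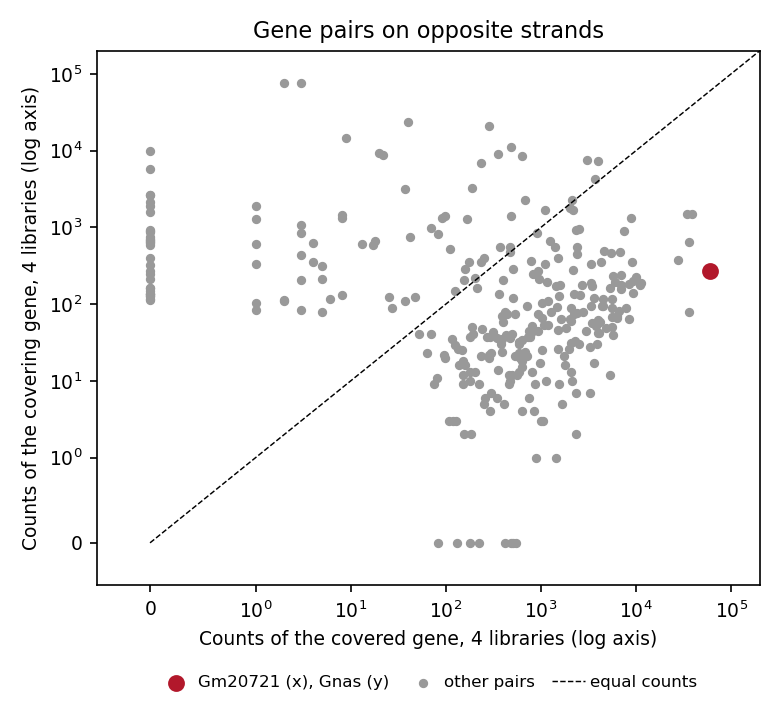
Counts of the covered gene (horizontal) and of the longer gene covering it from the opposite strand (vertical), summed over 4 libraries, on axes logarithmic above 1 and linear below, with 1 point per pair. Gm20721 with Gnas is the point farthest right, below the dashed line of equal counts, as are most pairs.

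By library, the Gnas share was 0.268%, 0.756%, 0.340% and 0.446%, against a median over the pairs of 8.05%, 10.7%, 8.08% and 6.98% in replicates 1 to 4. Replicate 2 was highest in both. As densities, Gnas stood at 0.0356%, 0.101%, 0.0452% and 0.0594% of Gm20721, against medians of 0.549%, 0.833%, 0.715% and 0.609%. Replicate 2 was again highest in both.

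Exons with the same edges on both strands were uncommon in the annotation. Of 4597 pairs of genes with exons overlapping on opposite strands, 13 had at least 1 exon with the same edges on both sides. Of these, 10 pairs had 1 such exon, 2 pairs had 2, and Gnas with Gm20721 had 3. The pairs with 2 were named after their values were seen. In the first, Gm21958 had 706, 693, 686 and 432 counts, against 197, 291, 288 and 188 for Supt20, a subunit of the SAGA coactivator complex. In the second, 3110021N24Rik had 0 counts, against 76, 77, 59 and 40 for Zfyve9, which binds SMAD proteins in TGF-beta signalling. Per exon length the antisense model was higher in the first and was listed at 0 in the second.

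Around the locus, no other gene came near the level of Gm20721. Within 500 kb of Gnas there were 26 other genes, of which 12 had at least 1 count and 14 had none. All 26 together held 485 counts. A mean of 1 TPM or more was reached by 9 of them, against 21.6% of all 50600 genes. Of the 10 coding ones 6 reached it, against 33.96% of all protein-coding genes. The 9 include the short RNA models Gm27869 and Gm27849, which held 7 and 3 counts over all libraries. The highest was Ctsz, the lysosomal protease cathepsin Z, with 37, 68, 60 and 33 counts (26.4 ± 6.79 TPM, SD, n = 4). Stx16, a syntaxin of Golgi transport, had 11, 35, 26 and 6 counts (3.62 ± 2.19 TPM). Atp5e, a subunit of mitochondrial ATP synthase, had 8, 9, 7 and 0 counts (2.42 ± 1.62 TPM). The pseudogene Vmn1r-ps1 had 3, 8, 10 and 4 counts (8.43 ± 4.07 TPM). The microRNA genes Mir296 and Mir298, beside the Nespas end, had 0 counts, as did Tubb1, the platelet tubulin, and Edn3, which encodes endothelin 3.

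Short RNA models on the plus strand had counts where Nespas had none. Gm27869 (122 bases) had 5, 0, 0 and 2 counts and Gm27849 (125 bases) had 0, 0, 3 and 0 counts in replicates 1 to 4. Gm27869 lies opposite a Nespas exon over 122 bases, and Gm27849 lies opposite it over 100 bases. Their mean levels of 11.4 and 4.60 TPM rest on these 10 counts. Nespas therefore stood at 0 beside a few counts on the other strand.

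**Figure D3:**
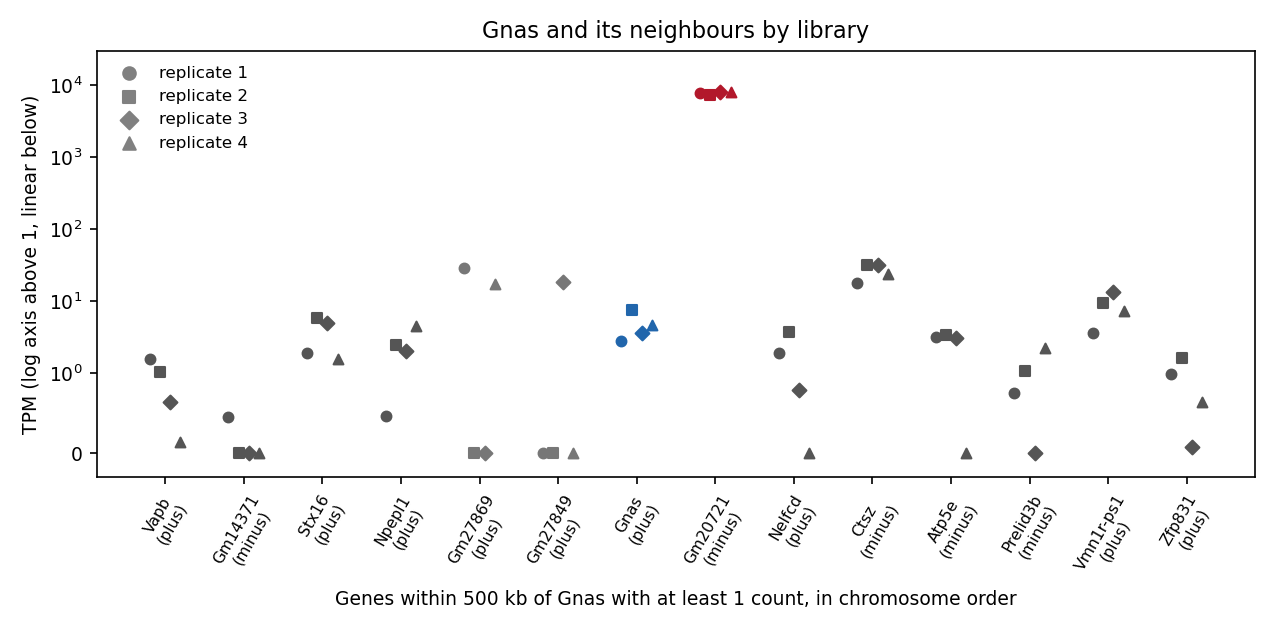
TPM in each library of the genes within 500 kb of Gnas that had at least 1 count, in chromosome order with the annotated strand, on an axis logarithmic above 1 and linear below. Gm20721 stands at 7387 to 8032 TPM, Gnas between 2.80 and 7.46 TPM, and Ctsz is the highest of the other genes.

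Gnas was next placed among the 16 G protein alpha subunit genes. Of these, 6 were detected (37.5%, against 33.96% of all protein-coding genes) and 3 had no count, with a list median of 0.371 TPM. Gnal, which encodes the olfactory relative of the stimulatory alpha subunit, was highest at 294 ± 10.6 TPM, with 2557, 2491, 2208 and 1567 counts. Its opposite gene Mppe1 had 9.72 ± 2.27 TPM. The inhibitory subunit genes Gnai2 and Gnai3 had 20.3 ± 4.68 and 5.17 ± 1.98 TPM. Gnas followed at 4.66 ± 2.03 TPM, then Gna13 at 4.08 ± 0.709 TPM and Gna12 at 2.10 ± 1.71 TPM, which form a class of their own among the alpha subunits. From Gnai3 to Gna12, neighbours in this order differed by less than the sum of their SDs. The order holds for the annotated strand alone. Over its own exons Gm20721, opposite Gnas, stood at 7821 TPM. Mppe1, at 9.72 TPM over its own exons, lies opposite only 365 of the 5761 exon bases of Gnal. Fragments opposite the alpha subunit genes were not counted as such, so their order on that strand could differ and was not tested.

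The other alpha subunits were near or at 0. The Gq class genes Gna15, Gna14, Gna11 and Gnaq stood at 0.647, 0.425, 0.310 and 0.0817 TPM. The transducin genes Gnat2 and Gnat1 stood at 0.317 and 0.310 TPM, and Gnao1, the neuronal Go subunit, at 0.181 TPM. Gnai1, Gnat3 and Gnaz had no count. A gene on the opposite strand, sharing 100 or more exon bases, was annotated for 5 of the 16, and it had more counts than the alpha subunit gene for 3 of them. Beside Gnas with Gm20721, these were Gna13, whose opposite gene Gm11696 had 81.5 ± 10.03 TPM, and Gna12, whose opposite gene Amz1 had 18.8 ± 4.88 TPM. The opposite gene was lower for Gnal and for Gnao1, where 4930488L21Rik was listed at 0. How often the opposite gene is higher over all genes was not worked out, so no trait of the family is read from this.

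The beta and gamma subunits, which hold the alpha subunit at the membrane, were detected for 8 of 17 genes, with a median of 0.276 TPM and 5 at 0. Gngt2 had 97.6 ± 13.6 TPM and its opposite gene Abi3 had 32.2 ± 6.22 TPM. Gng3 had 55.6 ± 10.2 TPM, against 1.15 ± 0.407 TPM for Bscl2 on the other strand. Gng13 had 22.7 ± 5.94 TPM, against 0.148 ± 0.208 TPM for Chtf18. These gamma genes are best known from photoreceptors, brain and taste cells. Gng5, a widely used gamma gene with no such overlap, had 11.2 ± 2.31 TPM, and Gng11 and Gng4 were at 0.

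Receptors that signal through the stimulatory subunit were detected for 7 of 16 genes, with a median of 0.396 TPM and 6 at 0. The prostaglandin E2 receptors Ptger4 and Ptger2 had 17.1 ± 2.48 and 6.79 ± 1.82 TPM. On the strand opposite to Ptger4, Gm15937 had 2.39 ± 2.71 TPM. Vipr1, a receptor for vasoactive intestinal peptide, had 6.81 ± 1.05 TPM. Adrb1 and Adrb3 had no count, and neither had Gm45470 opposite Adrb3.

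Adenylyl cyclases, the enzymes that the stimulatory subunit activates, were detected for 5 of 10 genes, with a median of 0.696 TPM and 3 at 0. Adcy3 had 29.2 ± 3.19 TPM, against 71.3 ± 4.31 TPM for Cenpo on the other strand. Adcy7, a form prominent in blood cells, had 15.9 ± 2.99 TPM. Adcy5 had 2.89 ± 1.38 TPM. Adcy6 had 1.79 ± 1.32 TPM, with 6, 14, 29 and 7 counts. Its opposite gene Gm29331 had 930, 1004, 934 and 571 counts, or 1089 ± 83.5 TPM. As at Gnas, the counts of that pair lay almost wholly on the Gm-numbered gene. Adcy10 and Adcy2 were at 0.

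Genes of protein kinase A, Epac and their targets were detected for 11 of 20, with a median of 1.32 TPM and 4 at 0. Ric8a, a chaperone of G protein alpha subunits, had 15.8 ± 1.35 TPM, against 6.57 ± 1.21 TPM for Sirt3 on the other strand. Csk, the kinase through which cyclic AMP restrains the antigen receptor, had 9.58 ± 3.20 TPM. Prkar1a, a regulatory subunit of protein kinase A, had 6.31 ± 1.59 TPM. Pkig, an inhibitor of the kinase, had 17, 18, 56 and 15 counts (5.17 ± 3.75 TPM), with replicate 3 high. Pkia and Pkib were at 0.

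Cyclic AMP phosphodiesterases, which end the signal, were detected for 7 of 12 genes, with a median of 1.48 TPM and 2 at 0. Pde7a had 16.9 ± 1.82 TPM, Pde3b had 12.5 ± 2.17 TPM, Pde8b had 8.59 ± 2.86 TPM and Pde4b had 2.54 ± 0.989 TPM. Pde3a and Pde7b were at 0, as was Gm28523 opposite Pde3a. By comparison, 7390 of the 21764 protein-coding genes were detected (33.96%), with a median of 0.144 TPM. The share detected ran from 37.5% to 58.3% over the 6 signalling lists. The lowest, 37.5% of the alpha subunits, was close to that of protein-coding genes. The lists were chosen with these data known, and whether their shares exceed that of coding genes was not tested.

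**Figure D4:**
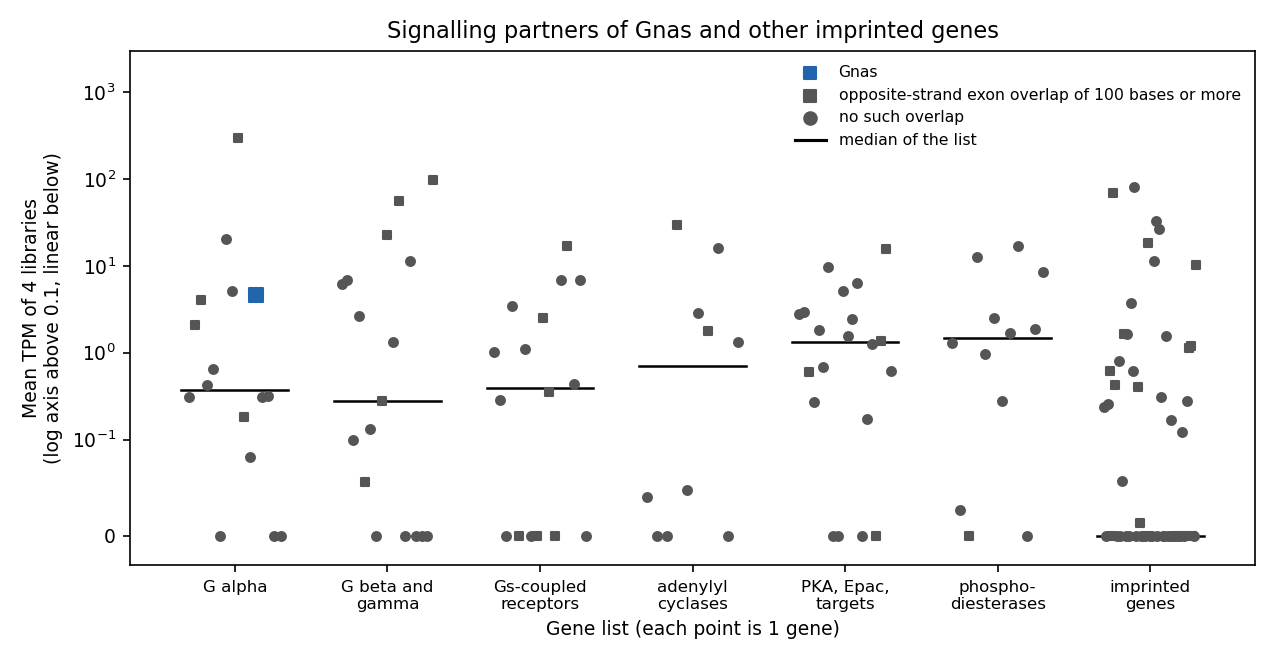
Mean TPM of each gene over the 4 libraries, by list, on an axis logarithmic above 0.1 and linear below. Squares share 100 or more exon bases with a gene on the opposite strand, circles do not, black bars are list medians, and Gnas is the large blue square at 4.66 TPM.

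Imprinted genes are known for expression from the allele of a given parent, which was not measured here. Of those listed elsewhere in the genome, 13 of 53 were detected, with a median of 0 TPM and 27 at 0. That share of 24.5% is close to the 21.6% of all genes and below the 33.96% of protein-coding genes. Inpp5f, an inositol phosphatase gene, had 80.3 ± 8.98 TPM. Nap1l5 had 96, 104, 115 and 15 counts (32.6 ± 16.9 TPM), with replicate 4 low. Nnat, the neuronatin gene, had 26.2 ± 6.42 TPM. Ascl2 and Cdkn1c had no count, while Gm44732 opposite Cdkn1c had 35, 19, 16 and 13 counts. An opposite-strand gene was annotated for 15 of the 53. It had more counts for 8 of them and fewer for 3, and for 4 both genes had 0 counts. The same shares over all genes with an opposite-strand gene were not worked out, so these counts only describe the list.

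A pair of imprinted genes resembled Gnas in having a Gm-numbered gene with many more counts on the other strand, and they were picked after their values were seen. Ube3a, a ubiquitin ligase, had 16, 58, 21 and 32 counts, against 1254, 1125, 1158 and 896 for Gm44560. H13, a signal peptide peptidase, had 17, 34, 14 and 13 counts, against 2299, 1841, 1597 and 1146 for Gm26841. Per exon length, Gm44560 stood at 277 ± 24.1 TPM and Ube3a at 1.21 ± 0.650 TPM. Gm26841 stood at 736 ± 107 TPM and H13 at 1.66 ± 0.625 TPM. In both cases replicate 2 was the highest library for the imprinted gene in counts, as it was for Gnas. It was also the deepest library, with 2351916 counts in total against 2131288 in replicate 1. Gnas was highest there in CPM too, at 52.7, and a part of depth was not tested.

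Imprinted pairs in which a gene lies on the other strand of its partner, within it or beside it differed in which member had the counts. Airn, the noncoding antisense RNA of Igf2r, had 0, 5, 0 and 0 counts, against 46, 77, 45 and 22 for Igf2r. As at Nespas and Gnas, the gene annotated as antisense had counts at or near 0, though Airn and Igf2r share no exon bases. A count of 0 was common, at 33594 of all 50600 genes, so no trait of antisense genes is read from this. Zrsr1 had 10.3 ± 3.35 TPM, against 68.9 ± 7.90 TPM for Commd1, with which it shares 203 exon bases. Copg2 had 0.419 ± 0.348 TPM, against 18.1 ± 3.56 TPM for Mest, over 912 shared bases.

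Other partners without shared exon bases also differed. Nap1l5 had 32.6 ± 16.9 TPM, against 1.63 ± 0.302 TPM for Herc3. Nnat had 26.2 ± 6.42 TPM, against 0.257 ± 0.328 TPM for Blcap. On the same strand as their partners, Mcts2 was at 0 beside H13, and Peg13 had 0, 12, 9 and 14 counts beside 3, 5, 2 and 0 for Trappc9. Of the 7 pairs given here, the gene named first held fewer counts in 4 and more in 3.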

How the data were processed

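RNA from 4 samples was sequenced. Per the file headers, the authors aligned with STAR to mm10 and counted fragments per gene with featureCounts 1.4.6-p4 over exons of GENCODE mouse release 13. The strand setting was 1 and fragments with an unaligned end were left out. The deposited counts are raw and were not normalised. The other deposited column used is exon length in bases. Neither the kit nor any trimming is given in the sources used here.

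Totals ranged from 1452053 to 2351916 counts. CPM and TPM were computed here from deposited counts and exon lengths in Python 3.11.15 with pandas 2.3.3. Identifiers gave symbols for 50376 of 50600 genes, and 224 had none. Gene types and transcripts came from GENCODE release 21. No library was a copy of another (chi-square per degree of freedom 6.29 to 24.8 over 6 pairs).

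Spread between libraries was fitted across all genes with edgeR 4.0.16 in R 4.3.3 (filterByExpr, TMM factors, intercept only). A gene was called when its quasi-dispersion exceeded the prior (upper-tail F test, p-values adjusted by Benjamini-Hochberg over all fitted genes, threshold 0.05). Size factors of DESeq2 1.42.0 served as an alternative scaling. Other alternatives were the low-count filter, exon length, the number added to counts, the detection level and leaving out each library. Intervals are exact at 95%, and intervals and limits cover counting error only.

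The members and lists were chosen with earlier results of these data known. Named were all alpha subunits, of each other list its 4 highest and 2 lowest by mean TPM, the 6 highest of the genes within 500 kb, and imprinted pairs with a mean count of at least 5 in either gene. The 3 genes most like Gm20721 and the opposite gene of each named list gene were also named. Genes outside this rule were chosen after their values were seen: the neighbours given at 0, marker genes, and those so described in the text. A few genes that this rule or the marker lists took are not reported here. Signal tracks were not analysed here.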

Additional observations from a re-analysis of the deposited data

Results flagged for a closer look

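Of 37 quantities (CPM of named genes and the Gnas share of pair counts) tested for a library far from the other 3, 5 had a gap to the nearest library that took up more of the group's range than Dixon's 95% critical value allows. Chance flags about 1 in 20 groups. None of them was Gm20721 or Gnas. The gap, as a share of the range of CPM, was 0.951 for Atp5e, a neighbour of Gnas with no count in replicate 4. It was 0.923 for Pde7a, which was high in replicate 3, and 0.918 for Adcy3, which was low in replicate 2. It was 0.917 for Gng13, which was high in replicate 1, and 0.875 for Pkig, which was high in replicate 3.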

How the results depend on the processing

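The log2 ratio of Gm20721 to Gnas per exon length, 10.81, was positive under every alternative run. It was 7.89 with no division by length and 10.59 to 11.09 with each library left out. Dividing each gene's whole count by its exon bases outside the other gene gave 17.23, with only 15 such bases in Gm20721. Counts carry no position within a gene, so 17.23 is no measure of the level outside the overlap. The log2 ratio of Nespas to Gnas depends on the number added to a count of 0. It was -5.14 with 0.5 added, -7.45 with 0.1, -4.15 with 1, -6.97 with no division by length and -5.30 to -4.81 with each library left out. Mean CPM moved by less than the spread between libraries under every scaling tried: with each library left out it was 7542 to 7931 for Gm20721 and 27.9 to 38.5 for Gnas, and Nespas stayed at 0. Without replicate 2, the library with the most Gnas counts, Gnas had 27.9 CPM.

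The genes more variable than the trend in edgeR numbered 16, and 14 to 16 under other filters and scalings. They numbered 7 to 10 with each library left out, where fewer samples enter the fit. At a detection level of 2 TPM in place of 1, the count was 3 in place of 5 for cyclases, 7 in place of 11 for protein kinase A and Epac genes, 4 in place of 7 for phosphodiesterases and 8 in place of 13 for imprinted genes. At a mean of 1 CPM instead, the count rose to 15 for protein kinase A and Epac genes and to 19 for imprinted genes. The shares of all genes at 2 TPM and at 1 CPM were not worked out. The alternatives counted as leaving a value unmoved numbered 80, with those at 1 CPM among them, and none reversed a direction.

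No paired analysis was possible because the labels give 1 group. Depth limits the low genes: 3 counts over the group correspond to 0.382 CPM. Which strand was transcribed was not tested either, so Nespas had no count here rather than being shown to be absent. The counts do not say where within a gene a fragment lies, so neither the Gnas starts nor the shared exons can be measured apart.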
